A study of Mus musculus with 17 samples.

Results

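Genes for amino acid transporters were followed in the neonatal mouse heart, over the week in which the circulation leaves its fetal pattern. They were chosen by symbol: every gene whose mouse symbol begins with Slc1a, Slc3a, Slc7a, Slc36a, Slc38a or Slc43a, which gave 41 of the 16569 named genes in the table. Of these, 40 belong to transporter families, and Slc7a6os meets the symbol rule although it is a separate neighbour of Slc7a6 and no transporter. Strand-specific paired-end libraries of total RNA came from the right ventricle (RV) and the left ventricle (LV) of male C57BL/6 mice. The ages were postnatal day 0 (P0, before the ductus arteriosus closes), day 3 (P3, a transition) and day 7 (P7, when the labels place terminal differentiation for most cardiomyocytes). The 6 groups were RV at P0, P3 and P7 and LV at P0, P3 and P7, with 3 biological replicates each except 2 for RV P7. The sources used here do not say whether 1 library held 1 animal or a pool.

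Amino acids cross membranes on carriers that differ in substrate and driving ion. Sodium-coupled carriers of the Slc38 and Slc1 families accumulate glutamine, alanine, serine, glutamate and aspartate, and Slc7 light chains bound to the heavy chain Slc3a2 exchange the accumulated amino acids for leucine and other large neutral amino acids or for cationic ones. Slc36 carriers move small amino acids with protons, some of them out of lysosomes, and lysosomal Slc38a9 reports arginine to the growth kinase complex mTORC1. In heart muscle these carriers supply protein synthesis, intermediates for energy metabolism and glutathione.

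Levels are RPKM (reads scaled to the length of the transcript and the size of the library), 1 value for each RefSeq messenger RNA entry and library. The libraries held 27561845 to 41061058 reads, and the lowest value of a tested gene named here, 0.114 RPKM of Slc1a1, rests on 14 reads. In 7 libraries, all of P3 or P7, the entry NM_008710 had 0.128 to 0.205 RPKM. It had 2.99 to 15.6 RPKM in the other 10, which include every P0 library. The libraries therefore differed by more than chamber and age, and its part in the age comparisons was not tested. A transcript was tested when it reached 1 RPKM in at least 2 libraries. Of the 41 genes, 21 passed: 4 of 7 with the prefix Slc1a, 1 of 2 with Slc3a, 6 of 15 with Slc7a, all 3 with Slc36a, 6 of 11 with Slc38a and 1 of 3 with Slc43a. Because a gene can pass through the group where it is high, these 21 do not stand for all 41. A value of 1 entry may leave out reads shared with the gene's other entries and is then no total of its gene. Of the 32 genes with 1 entry 20 passed, whereas of the 9 with several entries Slc3a2 passed.

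Slc38a2 (SNAT2, a sodium-coupled carrier of small neutral amino acids) held 42.3% of the summed mean level of the 41 genes. Together with Slc38a4 (SNAT4, imprinted and best known from placenta) and Slc43a3 (a purine nucleobase carrier despite its family name) it made up 72.5%. The summed level of the 41 genes averaged 301 ± 13.8 RPKM in RV P0, 234 ± 13.8 in RV P3 and 187 ± 19.5 in RV P7 (SD; n = 3, 3 and 2). For the left ventricle the averages were 315 ± 16.8 RPKM at P0, 245 ± 30.9 at P3 and 188 ± 9.04 at P7 (SD, n = 3 each). In both chambers each P7 library lay below each P0 library. The total over all listed entries was also lower late, with group means of 326390.0 RPKM in RV P7 against 408856 in RV P0 and of 330042 RPKM in LV P7 against 398675 in LV P0.

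**Figure D1:**
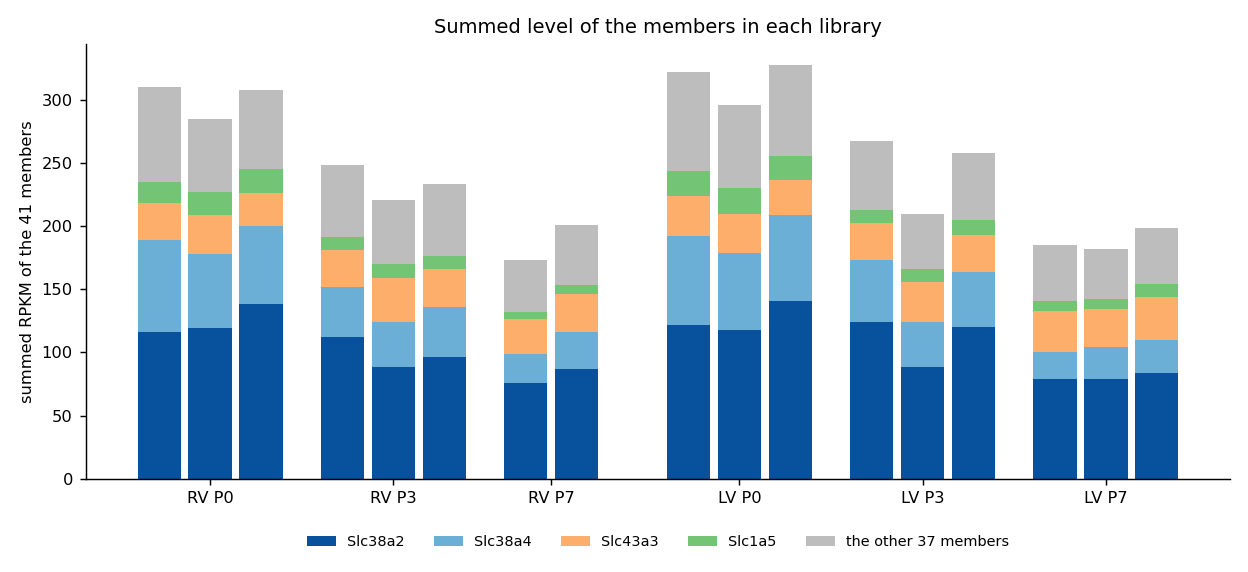
Summed level (RPKM, linear axis from 0) of the 41 genes in each of the 17 libraries, RV groups left of LV groups, with Slc38a2, Slc38a4, Slc43a3 and Slc1a5 shown in their own colours and the other 37 in grey. P7 libraries reach 173 to 201 RPKM in RV and 182 to 199 in LV, below all P0 libraries of their chamber.

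**Figure D2:**
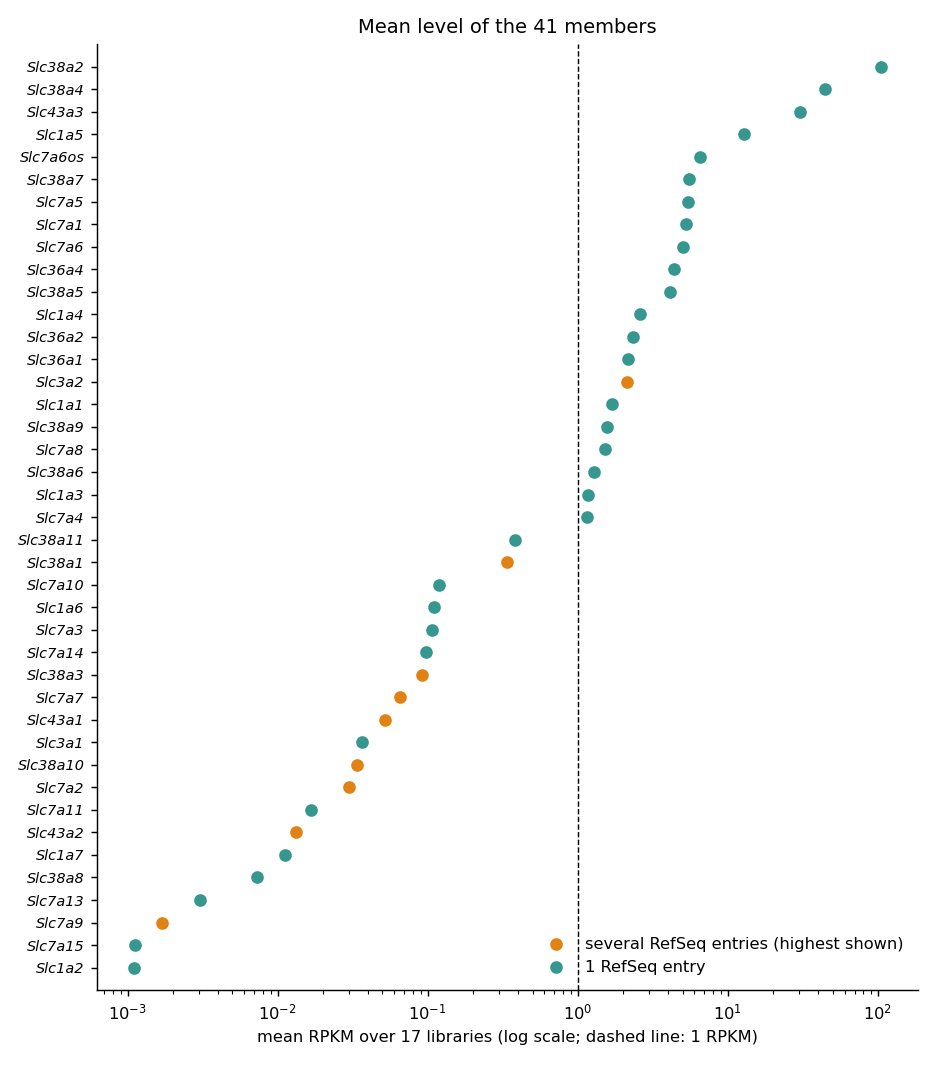
Mean level over 17 libraries (RPKM, log axis) of each of the 41 genes, coloured by whether the gene has 1 RefSeq entry or several, of which the highest is shown. The 21 tested genes lie right of the dashed line at 1 RPKM, and the highest of the others, Slc38a11, stands at 0.383 RPKM.

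The change between birth and day 7 was tested in each chamber with limma on log2(RPKM + 1), with Benjamini-Hochberg adjustment over all 10668 tested entries and a call at an adjusted p under 0.05. A fold change on this scale understates the change of low genes. In RV, 1 of the 21 genes was higher and 11 were lower at P7 than at P0, and in LV 1 was higher and 13 were lower. Slc1a1, Slc1a3 and Slc7a4, lower in both chambers, had passed the filter through P0 and P3 libraries alone, where they are high. Over all tested entries the shares called were 9.81% higher and 46.1% lower in RV and 11.8% higher and 53% lower in LV. The median log2 change of the 21 genes was -0.41 in RV and -0.54 in LV, beside -0.29 and -0.31 over all tested entries. Falls were thus common over the whole table. When the libraries were scaled to a common upper quartile, the medians over all entries came to -0.02 in both chambers, and 3 of the 21 genes were then higher and 7 lower in RV, and 3 higher and 11 lower in LV. The shares of all entries called under that scaling were 19.8% higher and 20.6% lower in RV and 24.4% higher and 25.3% lower in LV. With the libraries set to the same total over the listed entries, 2 were higher and 6 lower in RV, and 2 higher and 11 lower in LV, beside 18.8% higher and 19.0% lower of all entries in RV and 19.7% and 30.0% in LV; the medians over all entries were then -0.0210 in RV and -0.0882 in LV. Slc1a1, Slc1a5, Slc36a2, Slc38a4, Slc38a5, Slc7a5 and Slc7a6 kept their P7 against P0 calls in both chambers under each of the 25 alternatives run. Without the 7 libraries low in NM_008710, an alternative chosen after the data were seen that leaves 1 library in each P3 and P7 group, 11 genes were called in each chamber, 1 higher and 10 lower, beside 40.1% of all entries called in RV and 36.5% in LV. In RNA from whole ventricles, fewer cells of a type and less RNA per cell cannot be told apart.

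**Figure D3:**
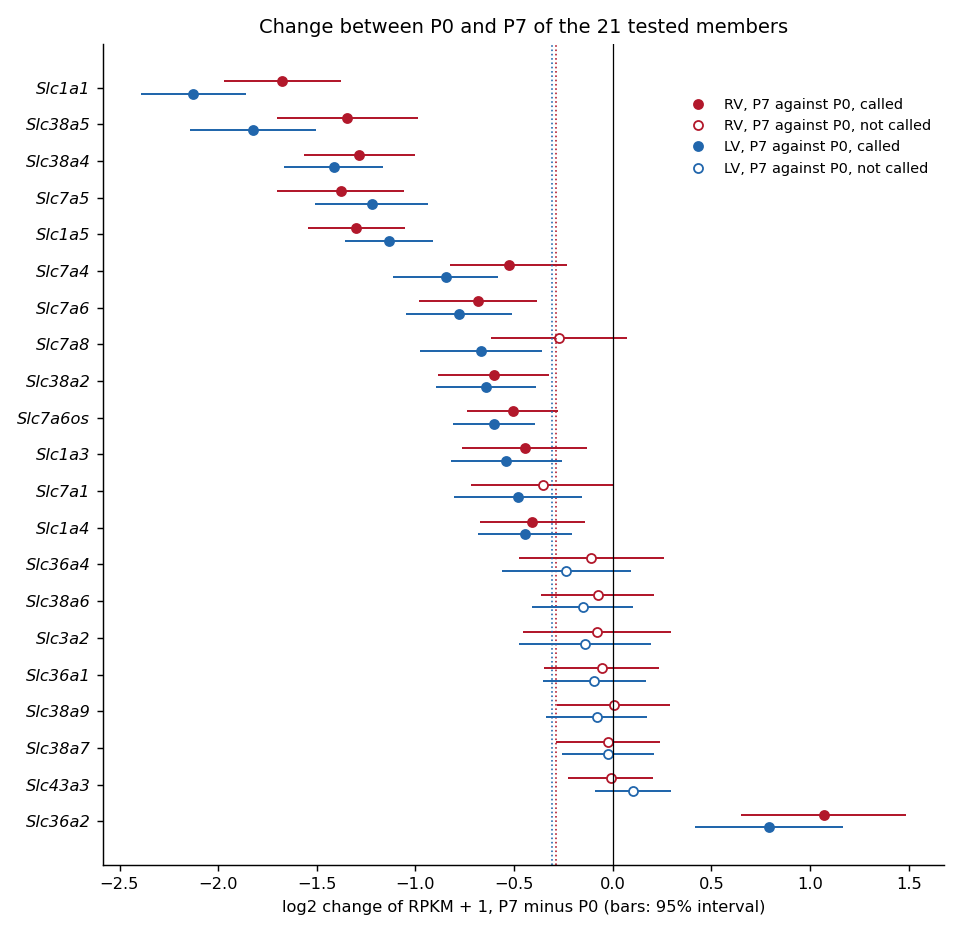
Change between P0 and P7 of the 21 tested genes (log2 of RPKM + 1, P7 minus P0) with 95% intervals from limma, RV above LV for each gene; filled points were called and open points were not. Dotted lines mark the medians over all tested entries, -0.29 in RV and -0.31 in LV; Slc1a1 lies farthest left and Slc36a2 is the sole called gene right of 0.

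Slc1a1 (EAAT3, which takes up glutamate, aspartate and cysteine; chr19:28835135-28913960 on GRCm38.p6) fell most. In RV it stood at 3.04, 3.16 and 3.57 RPKM at P0, at 0.865, 0.744 and 0.510 RPKM at P3, and at 0.306 and 0.354 RPKM at P7. In LV it stood at 3.90, 4.04 and 4.57 RPKM at P0, at 1.49, 0.711 and 1.03 RPKM at P3, and at 0.174, 0.114 and 0.267 RPKM at P7. No 2 ages of a chamber overlapped. Its mean was 9.86-fold lower in RV P7 than in RV P0 and 22.6-fold lower in LV P7 than in LV P0. The log2 change was -1.68 ± 0.14 in RV (SE, limma, adjusted p = 2.58e-08) and -2.13 ± 0.13 in LV (adjusted p = 1.25e-10).

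Slc38a5 (SNAT5, a carrier of glutamine, asparagine and histidine; chrX:8271381-8280179) had the second steepest fall in LV. Its levels were 6.41, 5.4 and 5.98 RPKM in RV P0, 4.15, 3.40 and 5.66 RPKM in RV P3, and 1.56 and 1.89 RPKM in RV P7. They were 9.29, 6.29 and 6.88 RPKM in LV P0, 3.76, 2.48 and 3.28 RPKM in LV P3, and 1.44, 1.36 and 1.32 RPKM in LV P7. The ages were apart in LV, whereas in RV a P3 library reached into the P0 range and only P7 was apart. The log2 change from P0 to P7 was -1.35 ± 0.17 in RV (SE, limma, adjusted p = 3.77e-06) and -1.82 ± 0.15 in LV (adjusted p = 1.26e-08).

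To show the DNA around gene starts, windows are given from RefSeq (GRCm38.p6), from 250 bases before to 20 bases after the annotated start. They are those of Slc1a1 and Slc38a5, which fell most in LV on the log2 scale, and of Slc1a4, which holds the motif described next. The motif TGATGNAA, read on both strands, is the core of the element through which ATF4, the transcription factor of the amino acid deprivation response, acts on its target genes. In windows of 300 bases (250 before to 50 after the start) it occurred in 1304 of all 32851 windows, or 3.97%. Among the tested genes 16 had such windows, 20 windows in all. Slc1a5, Slc36a2, Slc43a3, Slc7a4 and Slc7a5 had none and were not searched. Of the 20 windows 1, of Slc1a4, held a match. Capitals in the sequences mark that match, which lies on the opposite strand and begins 4 bases before the start. The window of Slc1a1 (chr19:28834885-28835154, plus strand) holds 70.4% G and C, that of Slc38a5 (chrX:8271131-8271400, plus strand) 56.3%, and that of Slc1a4 (chr11:20332694-20332963, minus strand) 64.4%. A match describes letters and shows no binding, and its lack says only that these letters are not in the window.
Slc1a1: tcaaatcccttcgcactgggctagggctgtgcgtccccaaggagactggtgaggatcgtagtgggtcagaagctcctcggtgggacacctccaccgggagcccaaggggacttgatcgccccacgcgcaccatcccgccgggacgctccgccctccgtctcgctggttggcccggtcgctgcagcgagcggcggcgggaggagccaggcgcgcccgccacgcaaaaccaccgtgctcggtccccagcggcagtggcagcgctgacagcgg
Slc38a5: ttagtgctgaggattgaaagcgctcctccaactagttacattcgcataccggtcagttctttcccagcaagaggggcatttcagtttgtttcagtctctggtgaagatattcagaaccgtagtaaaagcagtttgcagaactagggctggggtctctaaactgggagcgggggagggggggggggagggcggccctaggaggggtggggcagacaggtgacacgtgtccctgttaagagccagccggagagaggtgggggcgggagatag
Slc1a4: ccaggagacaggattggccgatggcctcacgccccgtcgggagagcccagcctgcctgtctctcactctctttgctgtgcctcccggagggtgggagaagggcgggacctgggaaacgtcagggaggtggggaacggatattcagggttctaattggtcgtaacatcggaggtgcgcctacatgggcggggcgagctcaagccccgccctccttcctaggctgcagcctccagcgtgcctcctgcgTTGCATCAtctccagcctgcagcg

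Slc38a4 (chr15:96994816-97055956) was the second most abundant of the genes at birth. In RV it measured 72.9, 58.9 and 61.8 RPKM at P0, 39.5, 35.9 and 39.3 RPKM at P3, and 22.7 and 29.2 RPKM at P7. In LV it measured 70.5, 60.5 and 68.1 RPKM at P0, 48.8, 35.7 and 44.3 RPKM at P3, and 21.5, 25.4 and 26.0 RPKM at P7. Each age lay wholly below the one before it in both chambers. Its mean was 2.48-fold lower in RV P7 than in RV P0 and 2.73-fold lower in LV P7 than in LV P0. The log2 change was -1.28 ± 0.13 in RV (SE, limma, adjusted p = 4.2e-07) and -1.42 ± 0.12 in LV (adjusted p = 1.5e-08).

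Slc38a2 (chr15:96687392-96699728), the most abundant of the genes throughout, fell less. In RV it stood at 116, 119 and 138 RPKM at P0, at 112, 88.4 and 96.6 RPKM at P3, and at 76.1 and 87.1 RPKM at P7. In LV it stood at 122, 118 and 141 RPKM at P0, at 124, 88.6 and 120 RPKM at P3, and at 79.2, 78.9 and 83.8 RPKM at P7. P7 lay below P0 and below P3 in both chambers, and P3 reached into the P0 range in LV. The log2 change from P0 to P7 was -0.60 ± 0.13 in RV (SE, limma, adjusted p = 0.00104) and -0.64 ± 0.12 in LV (adjusted p = 0.000145). The RV call was lost under both other scalings of the libraries, and the LV call was kept under each alternative run.

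The other 3 tested Slc38 genes did not pass the test between P0 and P7. Slc38a7, which exports glutamine and asparagine from lysosomes, ranged from 4.86 to 5.55 RPKM in RV P7 against 4.53 to 6.15 RPKM in RV P0, and from 4.51 to 5.78 RPKM in LV P7 against 5.02 to 5.60 RPKM in LV P0. The groups overlapped in both chambers, with log2 changes of -0.02 ± 0.13 in RV and -0.02 ± 0.11 in LV (SE); under upper-quartile scaling they came to 0.25 and 0.28 and were called higher. Slc38a9, the arginine sensor, averaged 1.36 ± 0.23 RPKM in RV P7 and 1.34 ± 0.13 in RV P0, and 1.44 ± 0.17 in LV P7 and 1.60 ± 0.42 in LV P0 (SD). Slc38a6 averaged 1.11 ± 0.54 RPKM in RV P7 and 1.19 ± 0.03 in RV P0, and 1.01 ± 0.18 in LV P7 and 1.23 ± 0.03 in LV P0.

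Slc1a5 (ASCT2, an exchanger that takes glutamine into dividing cells; chr7:16781334-16798274) fell in both chambers. In RV it stood at 16.9, 18.3 and 19.2 RPKM at P0, at 10.3, 11.4 and 10.5 RPKM at P3, and at 5.98 and 7.63 RPKM at P7. In LV it stood at 19.9, 20.7 and 19.5 RPKM at P0, at 10.5, 9.86 and 11.8 RPKM at P3, and at 8.2, 7.71 and 9.97 RPKM at P7. All P7 libraries lay below all P0 libraries, and in LV alone 1 P7 library reached into the P3 range. The log2 change from P0 to P7 was -1.30 ± 0.12 in RV (SE, limma, adjusted p = 6.97e-08) and -1.13 ± 0.11 in LV (adjusted p = 5.13e-08). Slc1a4 and Slc1a3 changed less than Slc1a5. Slc1a4 (ASCT1, a carrier of alanine, serine and cysteine) averaged 2.08 ± 0.38 RPKM in RV P7 and 3.07 ± 0.10 in RV P0, and 2.05 ± 0.02 in LV P7 and 3.17 ± 0.47 in LV P0 (SD). Slc1a3 (GLAST, a glutamate carrier best known from glia) averaged 0.723 ± 0.007 RPKM in RV P7 and 1.38 ± 0.47 in RV P0, and 0.871 ± 0.10 in LV P7 and 1.72 ± 0.18 in LV P0. Both were called lower in both chambers. The Slc1a4 calls were lost under both other scalings, the RV call also without RV P7 replicate 1 (log2 change -0.28) and the LV call also without the 7 libraries low in NM_008710. The RV call of Slc1a3 was lost under both scalings and without RV P0 replicate 1 (log2 change -0.29), either RV P7 library or those 7 libraries, and in the fit of only the compared libraries; without those 7 the LV call was lost too.

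Slc7a5 (LAT1, the light chain that exchanges glutamine for leucine and other large neutral amino acids; chr8:121881146-121907686) had the largest P7 against P0 change of the Slc7a genes on the log2(RPKM + 1) scale. By the ratio of plain means Slc7a4 fell more in LV, 3.55-fold against 2.73-fold for Slc7a5. Slc7a5 measured 10.5, 7.52 and 7.17 RPKM in RV P0, 3.30, 3.50 and 3.87 RPKM in RV P3, and 2.44 and 2.70 RPKM in RV P7. It measured 11.1, 8.40 and 8.27 RPKM in LV P0, 4.30, 4.02 and 4.72 RPKM in LV P3, and 3.43, 2.79 and 3.93 RPKM in LV P7. The 3 ages did not overlap in either chamber, and most of the difference lay between P0 and P3. The log2 change from P0 to P7 was -1.38 ± 0.15 in RV (SE, limma, adjusted p = 9.06e-07) and -1.22 ± 0.14 in LV (adjusted p = 5.31e-07).

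The heavy chain Slc3a2 (4F2hc or CD98; chr19:8706882-8723369), which Slc7a5, Slc7a6 and Slc7a8 need to reach the cell surface, did not pass the test in either chamber. Its higher entry stood at 2.63, 1.56 and 2.60 RPKM in RV P0, at 1.91, 2.13 and 1.93 RPKM in RV P3, and at 1.33 and 2.99 RPKM in RV P7. It stood at 2.65, 2.49 and 2.27 RPKM in LV P0, at 1.68, 1.95 and 1.91 RPKM in LV P3, and at 2.45, 2.0 and 1.99 RPKM in LV P7. P7 and P0 overlapped in both chambers, and the RV P7 libraries lay at the lowest and highest values of that chamber. The log2 change was -0.08 in RV (95% interval -0.45 to 0.29) and -0.14 in LV (-0.48 to 0.19), and Slc3a2 has 2 entries, so that its gene total may be higher than these values. The other heavy chain, Slc3a1 (rBAT, partner of Slc7a9 in kidney and gut), held 0 to 10 reads a library, at most 0.119 RPKM. The higher of the 2 entries of Slc7a9 reached at most 0.0291 RPKM in any library.

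Among the other light chains, Slc7a6 (y+LAT2, which exchanges cationic for neutral amino acids; chr8:106168219-106198714) averaged 3.61 ± 0.86 RPKM in RV P7 and 6.36 ± 0.71 in RV P0, and 3.50 ± 0.28 in LV P7 and 6.73 ± 0.71 in LV P0 (SD). It was called lower in both chambers, with log2 changes of -0.68 and -0.78. Slc7a8 (LAT2) averaged 1.21 ± 0.01 RPKM in RV P7 and 1.69 ± 0.52 in RV P0, and 0.963 ± 0.11 in LV P7 and 2.17 ± 0.69 in LV P0. It was called lower in LV, a call lost without the 7 libraries low in NM_008710, and the difference between the chambers' changes did not pass the test (0.40 ± 0.22, adjusted p = 0.998). Slc7a1 (CAT1, which takes up arginine and lysine without a heavy chain) averaged 4.73 ± 1.4 RPKM in RV P7 and 6.30 ± 1.4 in RV P0, and 4.10 ± 0.49 in LV P7 and 6.12 ± 0.70 in LV P0. Slc7a1 was called lower in LV, a call lost under both other scalings. Slc7a4, a CAT-like protein of unknown substrate, averaged 0.781 ± 0.13 RPKM in RV P7 and 1.58 ± 0.34 in RV P0, and 0.475 ± 0.06 in LV P7 and 1.68 ± 0.50 in LV P0. It was called lower in both chambers, and the RV call was lost with the same total over the listed entries and without those 7 libraries.

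Slc7a6os (chr8:106200438-106210933) lies tail to tail with Slc7a6 without overlap in the RefSeq table. It stood at 7.63, 7.14 and 6.99 RPKM in RV P0, at 6.39, 5.47 and 5.79 RPKM in RV P3, and at 4.37 and 5.27 RPKM in RV P7. It stood at 7.98, 8.99 and 8.74 RPKM in LV P0, at 7.28, 6.00 and 6.74 RPKM in LV P3, and at 5.22, 5.45 and 5.26 RPKM in LV P7. The ages did not overlap in either chamber, and the log2 change from P0 to P7 was -0.51 ± 0.11 in RV (SE, limma, adjusted p = 0.000871) and -0.60 ± 0.10 in LV (adjusted p = 4.05e-05). The RV call was lost under both other scalings.

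Slc36a2 (PAT2, which carries glycine, alanine and proline with protons; chr11:55158468-55185099) was the sole tested gene that rose with the values as deposited; the other scalings added Slc43a3, and Slc38a7 under the upper quartile. It stood at 1.46, 1.0 and 1.94 RPKM in RV P0, at 2.69, 1.52 and 2.5 RPKM in RV P3, and at 4.76 and 3.54 RPKM in RV P7. It stood at 1.07, 1.65 and 1.31 RPKM in LV P0, at 3.11, 1.81 and 2.41 RPKM in LV P3, and at 3.85, 2.69 and 2.66 RPKM in LV P7. All P7 libraries lay above all P0 libraries, while P3 reached into the P0 range in RV and P7 into the P3 range in LV. Its mean was 2.83-fold higher in RV P7 than in RV P0 and 2.28-fold higher in LV P7 than in LV P0. The log2 change was 1.07 ± 0.20 in RV (SE, limma, adjusted p = 0.000225) and 0.79 ± 0.18 in LV (adjusted p = 0.00084).

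Its lysosomal relative Slc36a1 (PAT1; chr11:55204322-55236330) averaged 2.08 ± 0.51 RPKM in RV P7 and 2.20 ± 0.46 in RV P0, and 2.15 ± 0.23 in LV P7 and 2.36 ± 0.28 in LV P0 (SD). Slc36a4 (PAT4, a carrier of proline and tryptophan) averaged 3.93 ± 0.49 RPKM in RV P7 and 4.4 ± 1.2 in RV P0, and 4.13 ± 0.73 in LV P7 and 5.04 ± 0.93 in LV P0. Neither passed the test, and P7 overlapped P0 for both genes in both chambers.

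Slc43a3 (chr2:84936545-84958509) did not pass the test in either chamber. It stood at 29.3, 31.1 and 26.3 RPKM in RV P0, at 29.3, 34.7 and 30.4 RPKM in RV P3, and at 27.5 and 29.8 RPKM in RV P7. It stood at 31.2, 31.0 and 27.3 RPKM in LV P0, at 28.9, 31.6 and 29.1 RPKM in LV P3, and at 32.0, 30.1 and 34.4 RPKM in LV P7. The ages overlapped in both chambers. The log2 change was -0.01 in RV (95% interval -0.23 to 0.21) and 0.10 in LV (-0.09 to 0.30), and Slc43a3 was called higher in both chambers under each of the other scalings, at 0.31 in RV under both and at 0.45 (upper quartile) and 0.37 (same total) in LV.

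**Figure D4:**
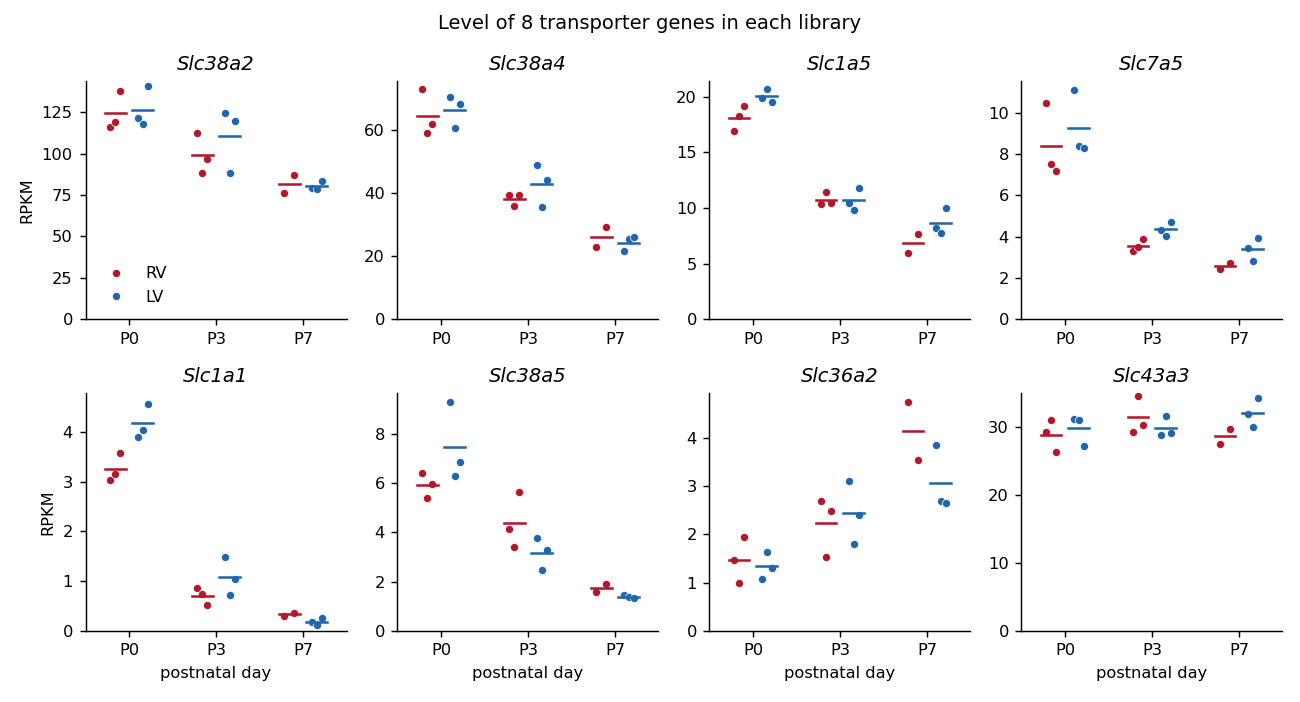
Level (RPKM, linear axes from 0) of 8 genes in each library at P0, P3 and P7, RV points left of LV points, with bars at the group means. Slc38a4, Slc1a5, Slc7a5, Slc1a1 and Slc38a5 descend with age, Slc36a2 stands at 2.66 RPKM or more in all P7 libraries, and Slc43a3 stays between 26.3 and 34.7 RPKM.

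The 2 intervals between the ages were tested apart. Between P0 and P3, 5 genes were lower in RV and none higher, and in LV 11 were lower and 1 higher, beside 21.5% lower and 9.72% higher of all entries in RV and 20.6% and 7.26% in LV. Slc1a1, Slc7a5, Slc38a4 and Slc1a5 were lower at P3 in both chambers. Slc1a1 changed by -1.32 ± 0.13 in RV and -1.33 ± 0.13 in LV on the log2 scale (SE, limma, adjusted p = 2.34e-07 and 2.58e-07), and Slc7a5 by -1.03 ± 0.14 and -0.93 ± 0.14. Slc38a5 was called lower at P3 in LV (-1.02 ± 0.15) and not in RV (-0.38 ± 0.15, adjusted p = 0.0659); the difference between these changes was not tested. Under upper-quartile scaling the RV counts were 4 higher and 4 lower, beside 17.4% higher and 14.1% lower of all entries. With the same total they were 5 higher and 4 lower, beside 23.7% higher and 8.69% lower of all entries. Without the 7 libraries low in NM_008710 the count of calls was 4 in RV and 3 in LV, beside 10.4% and 4.79% of all entries. The LV count was 6 without LV P0 replicate 3, beside 20.6% of all entries. It was 7 without LV P0 replicate 1 and 7 without LV P3 replicate 2, beside 18.0% and 19.7%. In RV the count was 8 without LV P3 replicate 2, beside 33.3% of all entries.

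Between P3 and P7, 3 genes were lower and 1 higher in RV and 8 were lower and none higher in LV, beside 14.8% lower and 2.5% higher of all entries in RV and 27.9% and 6.56% in LV. In RV the lower genes were Slc38a5 (-0.97 ± 0.17, adjusted p = 0.00126), Slc1a5 (-0.60 ± 0.12) and Slc38a4 (-0.55 ± 0.13), and Slc36a2 was higher (0.68 ± 0.20; SE, limma). In LV the largest falls on the log2(RPKM + 1) scale were those of Slc38a5 (-0.80 ± 0.15), Slc1a1 (-0.79 ± 0.13) and Slc38a4 (-0.79 ± 0.12). Slc7a5 did not pass in this interval in either chamber. Leaving out RV P7 replicate 1 leaves 1 library in that group. The RV log2 changes were then -0.44 for Slc1a5, -0.37 for Slc38a4 and 0.51 for Slc36a2. The LV count was 4 without LV P3 replicate 1 and 3 without LV P3 replicate 3, beside 19.8% and 22.4% of all entries. It was 5 without LV P7 replicate 1 and 4 without LV P7 replicate 2, beside 28.9% and 23.1%. Under upper-quartile scaling 1 was higher and 4 were lower in LV, beside 13.4% higher and 12.7% lower of all entries. Without the 7 libraries low in NM_008710, 0 genes were called in RV and 2 in LV, beside 0.544% and 4.69% of all entries.

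No gene of the 21 was called between RV and LV at any age, beside 0.141% of all tested entries at P0, 0.825% at P3 and 0.159% at P7. At an unadjusted p under 0.05, 2 genes differed at P0, 2 at P3 and 1 at P7, and the smallest adjusted p was 0.678, 0.356 and 0.571 (limma). The log2 difference, RV minus LV, ran from -0.28 (Slc1a1) to 0.07 (Slc36a2) at P0, from -0.27 (Slc1a1) to 0.36 (Slc38a5) at P3 and from -0.30 (Slc1a5) to 0.34 (Slc36a2) at P7. The 95% intervals lay within 0.5 of 0 on the log2 scale for 17, 15 and 14 of the 21 genes and within 1 of 0 for all 21 at each age. For some genes the libraries of the 2 chambers did not overlap. The share without overlap over all entries was not counted, so this is not read as a difference between the chambers. Slc1a1 was among these at P0, with 3.04 to 3.57 RPKM in RV against 3.90 to 4.57 in LV. It was also among them at P7, with 0.306 to 0.354 RPKM in RV against 0.114 to 0.267 in LV. The P7 against P0 change differed most between the chambers, RV minus LV, for Slc38a5 (0.48 ± 0.23, SE) and Slc1a1 (0.45 ± 0.19), and neither passed the test (smallest adjusted p = 0.956; 1 of 21 genes at an unadjusted p under 0.05; 0.0375% of all entries called). With the replicate number as a block, which pairs RV and LV libraries of an age, 0 of 21 were called beside 0.328% of all entries.

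**Figure D5:**
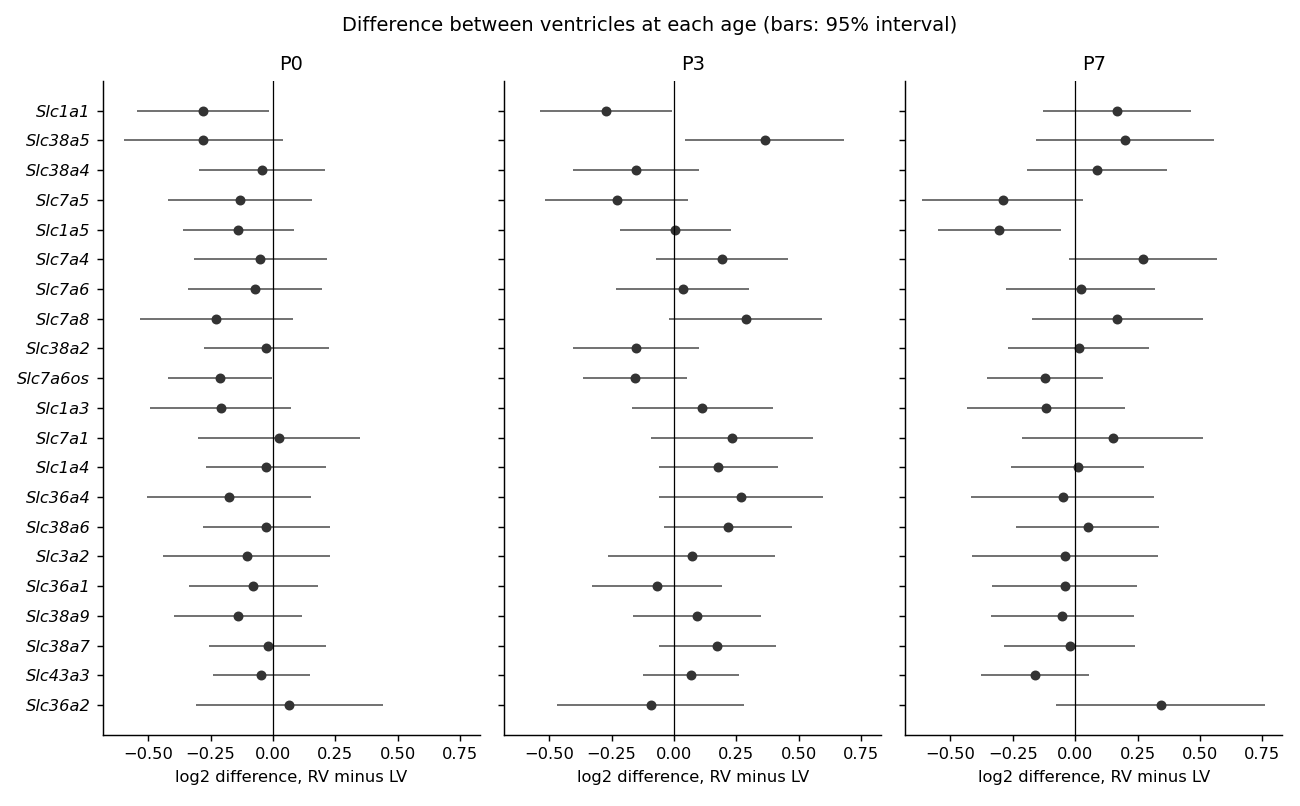
Difference between the ventricles at P0, P3 and P7 for the 21 tested genes (log2 of RPKM + 1, RV minus LV) with 95% intervals from limma, in the gene order of the plot of changes between P0 and P7. Points run from -0.30 to 0.36, and none was called.

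Of the 41 genes, 20 did not reach the filter, with means from 0.001 to 0.383 RPKM and no value above 0.770 RPKM in any library. Slc38a11, a little-studied member of its family, came nearest among these with a mean of 0.383 RPKM and no library at 1 RPKM, followed by Slc38a1 (SNAT1, a glutamine carrier of neurons) at 0.338 RPKM for the highest of its 3 entries. Just inside the filter, Slc1a1 reached 1 RPKM in 8 libraries, and Slc1a3 and Slc7a4 in 10 each. None of these was a P7 library. The highest P7 values were 0.354 RPKM for Slc1a1 (RV), 0.981 for Slc1a3 (LV) and 0.873 for Slc7a4 (RV). Several genes best known from other organs were close to 0. Slc1a2, the main glutamate carrier of astrocytes, reached at most 0.00519 RPKM in any library. Slc7a11 (xCT, which imports cystine for glutathione) held 0 to 8 reads a library. Below the filter, 8 genes have several entries: Slc38a1, Slc38a10, Slc38a3, Slc43a1, Slc43a2, Slc7a2, Slc7a7 and Slc7a9. Over all named genes, 40.6% of those with several entries had one that passed the filter, against 65.8% of those with 1 entry, so low values of these 8 do not show low gene totals.

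Other genes of amino acid handling, from lists chosen with earlier results known, were read against the same background: the all-entry shares given above, both as deposited and under upper-quartile scaling. Of 15 tested amino acid transporters of other SLC families, 1 was higher and 4 were lower at P7 than at P0 in RV, and 2 were higher and 10 lower in LV; under upper-quartile scaling these counts were 2 and 2 in RV and 4 and 4 in LV. Slc6a17, a vesicular carrier of neutral amino acids in neurons, averaged 0.834 RPKM in RV P7 and 3.59 in RV P0, and 0.811 ± 0.12 in LV P7 and 4.95 ± 0.77 in LV P0. Slc16a10 (TAT1), which lets aromatic amino acids out of cells, averaged 2.44 RPKM in RV P7 and 4.36 in RV P0, and 2.54 ± 0.18 in LV P7 and 4.97 ± 0.46 in LV P0. Both fell in LV, with log2 changes of -1.71 and -0.75 (limma, adjusted p = 9.53e-09 and 1.03e-05).

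Cytosolic aminoacyl-tRNA synthetases load amino acids onto tRNA. Of 19 tested, 16 were lower and none higher in each chamber, with a median log2 change of -0.53 in RV and -0.60 in LV; under upper-quartile scaling 10 were lower in RV and 11 in LV, and none higher. Gars, for glycine, averaged 32.1 RPKM in RV P7 and 74.2 in RV P0, and 32.9 ± 0.72 in LV P7 and 76.0 ± 3.2 in LV P0 (SD). Of 13 tested genes of serine, glycine and glutathione synthesis, 11 were lower in RV and 10 in LV, and none higher; under upper-quartile scaling 8 were lower and none higher in RV, and 7 lower and 1 higher in LV. Phgdh, the first enzyme of serine synthesis, averaged 2.68 RPKM in RV P7 and 8.68 in RV P0, and 1.90 ± 0.52 in LV P7 and 11.4 ± 3.1 in LV P0.

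Of 20 tested genes of the ATF4 response, which include Phgdh and Mthfd2, 1 was higher and 7 were lower in RV, and 2 were higher and 9 lower in LV; under upper-quartile scaling 2 and 6 in RV, and 3 and 5 in LV. Of 25 tested genes of amino acid sensing and mTORC1, 13 were lower in RV and 17 in LV and none higher; under upper-quartile scaling 1 was higher and 5 lower in RV, and 3 higher and 5 lower in LV. Rheb, the small GTPase that switches mTORC1 on, averaged 40.1 RPKM in RV P7 and 75.6 in RV P0, and 40.2 ± 1.6 in LV P7 and 73.8 ± 7.3 in LV P0 (SD), and fell in LV with a log2 change of -0.85 (limma, adjusted p = 5.47e-07).

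Of 22 tested genes of branched-chain amino acid breakdown, 1 was higher and 12 were lower in RV, and 1 was higher and 13 lower in LV; under upper-quartile scaling 3 and 8 in RV, and 3 and 10 in LV. Klf15, a transcription factor that drives this pathway in muscle, averaged 4.12 RPKM in RV P7 and 12.1 in RV P0, and 3.72 ± 0.28 in LV P7 and 13.5 ± 1.1 in LV P0 (SD). Dbt, a subunit of the branched-chain keto acid dehydrogenase, averaged 9.15 RPKM in RV P7 and 19.3 in RV P0, and 8.26 ± 0.57 in LV P7 and 23.8 ± 0.97 in LV P0. Of 16 tested genes of glutamine, glutamate and aspartate metabolism, 2 were higher and 9 lower in RV, and 3 higher and 10 lower in LV; under upper-quartile scaling 4 and 4 in RV, and 4 and 5 in LV. The alanine aminotransferase Gpt2 was among the higher ones in LV, at 5.44 RPKM in RV P7 and 1.86 in RV P0, and at 5.23 ± 0.86 in LV P7 and 1.71 ± 0.29 in LV P0 (log2 change in LV 1.20 ± 0.12, SE, limma, adjusted p = 1.17e-07). Asns, which makes asparagine from glutamine, averaged 3.21 RPKM in RV P7 and 7.62 in RV P0, and 3.41 ± 0.55 in LV P7 and 7.57 ± 0.70 in LV P0.

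Markers of cell types and of cell division moved with age beside these genes, and their part in the results was not tested. Cell division markers were lower at P7 for 8 of 8 genes in both chambers, beside 46.1% of all entries in RV and 53% in LV. Under upper-quartile scaling 7 were lower in RV and 8 in LV, beside 20.6% and 25.3% of all entries. As deposited they summed to 169 to 176 RPKM in RV P7 against 380 to 490 in RV P0. In LV the sums were 162 to 177 RPKM at P7 against 463 to 532 at P0. Endothelial markers summed to 1377 to 1877 RPKM in RV P7 against 737 to 879 in RV P0, and to 1955 to 2165 RPKM in LV P7 against 694 to 955 in LV P0. Of the 10, 5 were higher and 1, Emcn, was lower in RV, and 7 were higher and none lower in LV; under upper-quartile scaling 8 were higher in RV and 9 in LV, and none lower. Fabp4, a fatty acid binding protein of capillary endothelium, had the largest log2 changes of the 10, 1.25 in RV and 1.53 in LV. Macrophage markers summed to 131 to 135 RPKM in RV P7 against 53.9 to 81.9 in RV P0, and to 124 to 139 RPKM in LV P7 against 75 to 94.8 in LV P0, and 8 of 8 were higher in RV and 7 in LV; under upper-quartile scaling 8 were higher in each. Fibroblast markers summed to 772 to 904 RPKM in RV P7 against 400.0 to 587 in RV P0, and to 710.5 to 812 RPKM in LV P7 against 437 to 639.8 in LV P0. Of the 7 tested, 5 were higher in RV and 3 in LV, and none lower; under upper-quartile scaling 6 were higher in each.

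Other marker lists held genes that moved in opposite directions. Epicardial markers summed to 66.5 to 67.3 RPKM in RV P7 against 51.3 to 106 in RV P0, and to 49.1 to 59.5 RPKM in LV P7 against 49.1 to 90.3 in LV P0. Of the 7, 1 was higher and 4 lower in RV, and 1 higher and 5 lower in LV; under upper-quartile scaling 1 was higher and 1 lower in RV, and 1 higher and 5 lower in LV. The higher one was Aldh1a2, an enzyme of retinoic acid synthesis, with log2 changes of 1.4 in RV and 1.17 in LV, and the median of the list was -0.66 in RV and -1.34 in LV. Smooth muscle and pericyte markers summed to 619 to 747 RPKM in RV P7 against 725 to 847 in RV P0, and to 520.2 to 547 RPKM in LV P7 against 696 to 821 in LV P0. Of the 6 tested, 2 were higher and 3 lower in each chamber; under upper-quartile scaling 2 were higher and 1 lower in RV, and 2 higher and 2 lower in LV. The 2 higher ones were Rgs5 (2.31 in RV, 2.48 in LV on the log2 scale) and Kcnj8 (0.91 in RV, 1.15 in LV). Acta2 (-0.64 in RV, -1.47 in LV) and Cnn1 (-3.01 in RV, -3.22 in LV) were among the 3 lower. The list joins both cell types, and they were not counted apart. Cardiomyocyte markers summed to 27686 to 31119.8 RPKM in RV P7 against 31831 to 40756.5 in RV P0, and to 27205 to 28990.3 RPKM in LV P7 against 32845 to 37804 in LV P0. Of the 8, 2 were higher and 3 lower in each chamber; under upper-quartile scaling 3 were higher and 1 lower in RV, and 4 higher and 1 lower in LV. Erythroid markers summed to 1131 to 1257 RPKM in RV P7 against 1349.8 to 2922 in RV P0, and to 1458 to 1892 RPKM in LV P7 against 1533 to 2444 in LV P0. Of the 6 tested, 3 were lower and none higher in RV, and 1 was lower and 1 higher in LV; under upper-quartile scaling 1 was lower in RV and 3 were higher in LV. At P3 the erythroid markers summed to 429 to 611 RPKM in RV and 500 to 532 RPKM in LV, below P0 and P7 of the same chamber. Glia and neuron markers, 2 of which were tested, summed to at most 6.56 RPKM in any library. None of the listed markers with a row stood at 0 in all 17 libraries.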

How the data were processed

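The deposited files hold, for every library, 1 value for each messenger RNA entry of RefSeq. Their unit is stated nowhere; it was read from the values as RPKM (reads scaled to transcript length and library size), because low values are whole multiples of a step that falls with transcript length. The submitters' processing notes name STAR 2.4.0j and mm10. The sources used here do not say which tool the authors counted with, whether it used strand, which annotation version or filters were applied, or how reads that fit more than 1 entry of a gene were assigned. Library totals of 27561845 to 41061058 reads were recovered from the deposited RPKM as whole reads within a tolerance of 0.02 of a step. The most used step was taken as a pair of reads. Reads of an entry rest on the shortest length that made its values whole, so they are lower bounds.

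Gene names were matched through RefSeq for 20379 of 20624 entries and through GENCODE for 76, with 169 left unnamed; coordinates are those of RefSeq on GRCm38.p6. A gene with several entries was represented by the one with the highest mean over the 17 libraries. The 10668 entries that reached 1 RPKM in 2 or more libraries were fitted as log2(RPKM + 1) with limma 3.58.1 in R 4.3.3 (lmFit, contrasts.fit, eBayes with trend), all 17 libraries in 1 model of the 6 group means, with 10 comparisons, two-sided tests and a call at a Benjamini-Hochberg adjusted p under 0.05. The RPKM unit keeps a count test from being the main result. The code was tested on simulated data. Tables used Python 3.11.15 with pandas 2.3.3 and numpy 2.4.6, and figures matplotlib 3.10.9.

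The genes, the lists and the markers were chosen with earlier results of these data known. Per-library values are given for genes called with a log2 change of at least 1 in size between P0 and P7 in either chamber, for the 6 with the highest mean, and for Slc3a1 and Slc3a2 (for Slc38a7 and Slc3a1 as ranges); from the other lists, up to 3 called genes with the largest LV change were eligible. The alternatives were another pseudocount (0.1), no filter, 2 other scalings, summed entries and fits of only the compared libraries. Each library was also left out in turn, and a replicate block was fitted. Leaving out the 7 libraries low in NM_008710 was added after the data were seen. Leaving out a library of a group not compared keeps the size of a change, and so does summing entries for a gene with 1 entry. Such alternatives could hardly alter a call. The replicate numbers paired the chambers within an age: all 8 pairs of same-numbered RV and LV libraries deviated together from their group means (r from 0.269 to 0.587). With that block 0 of the 21 genes were called between the chambers at any age too, beside 0.919%, 5.99% and 1.00% of all entries at P0, P3 and P7.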

Additional observations from a re-analysis of the deposited data

How the results depend on the processing

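With an upper-quartile scaling, several uncalled P7 against P0 changes turned positive on the log2 scale: Slc36a1 (0.17 in RV, 0.15 in LV), Slc36a4 (0.15, 0.0558), Slc38a6 (0.0934, 0.0364), Slc38a7 (0.25, 0.28), Slc3a2 (0.14, 0.10), Slc38a9 (0.13 in LV) and Slc43a3 (0.31 in RV). With the same total over the listed entries these were Slc36a1 (0.17, 0.10), Slc38a7 (0.25, 0.21), Slc3a2 (0.14, 0.0468), Slc36a4 (0.15), Slc38a6 (0.0893) and Slc43a3 (0.31) in RV, and Slc38a9 (0.0806) in LV. Of the 21 genes, 5 were called for RV P3 against P0 as reported, 8 with upper-quartile scaling, 9 with the same total and 8 with the replicate block. The shares of all entries called under these alternatives were 31.5%, 32.4% and 35.3%. Without a filter all 41 genes were tested and 8 were called, 2 higher and 6 lower, beside 15.97% of all entries. That count is out of 41 and cannot be set beside the 5 of 21. For LV P7 against P3 the count was 8 as reported and 5 with each scaling and with only the compared libraries. The shares of all entries were then 26.1% (upper quartile), 26.9% (same total) and 31.8% (compared libraries). For LV P3 against P0 the count was 12 as reported and 6 with the same total, beside 21.6% of all entries. Over the 6 age comparisons the median change of all entries lay between -0.0328 and 0.0176 under upper-quartile scaling and between -0.12 and 0.10 with the same total; the causes were not tested. Without the 7 libraries low in NM_008710, LV P3 against P0 gave 3 calls, LV P7 against P3 gave 2 and RV P7 against P3 gave 0; Slc36a1 changed by 0.11 in RV and 0.0127 in LV, Slc38a7 by 0.0562 in RV and 0.0574 in LV, and Slc38a9 by -0.10 in RV, with signs opposite to those reported.

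Leaving out 1 library at a time, the calls for P7 against P0 numbered 10 to 13 in RV and 14 in LV each time, for RV P3 against P0 4 to 8, for LV P3 against P0 6 to 12, for LV P7 against P3 3 to 8 and for RV P7 against P3 1 to 5. Uncalled changes that crossed 0 ranged in RV from -0.23 to 0.11 (Slc36a1), -0.27 to 0.0612 (Slc36a4), -0.34 to 0.19 (Slc38a6), -0.12 to 0.0675 (Slc38a7), -0.10 to 0.11 (Slc38a9), -0.47 to 0.31 (Slc3a2) and -0.0737 to 0.0444 (Slc43a3), and in LV from -0.0774 to 0.0714 (Slc38a7) and -0.22 to 0.0105 (Slc38a9). A fit that leaves 1 RV P7 library assumes that it varies like the other groups. Beside the lowest LV counts, 6 for P3 against P0 and 3 for P7 against P3, 20.6% and 22.4% of all entries were called.

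Same-numbered libraries of different ages in a chamber did not deviate together: 3 of 16 pairs had r over 0.1, so the numbers there are only numbers. In the age comparisons the replicate block was the replicate number over all ages and chambers, so its counts there rest on no shown pairing across ages. Between the chambers it paired RV and LV libraries of an age. The replicate block moved no other count of calls by more than 1.5 times. Low levels rest on few reads, 14 for the lowest library of Slc1a1, and 2 libraries in RV P7 limit what that chamber can show.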

Other observations

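When the filter was dropped and 20624 entries were tested, 1 of the 20 genes below it was called higher and 3 lower at P7 than at P0 in LV, beside 7.68% higher and 29.9% lower of all those entries; in RV 2 were higher and 3 lower, beside 6.04% and 23.6%. Slc38a11 was among the higher in both chambers: it stood at 0.0349, 0.280 and 0.0686 RPKM in RV P0, at 0.623, 0.655 and 0.355 RPKM in RV P3, and at 0.551 and 0.634 RPKM in RV P7. In LV it stood at 0.0910, 0.245 and 0.135 RPKM at P0, at 0.299, 0.345 and 0.452 RPKM at P3, and at 0.770, 0.562 and 0.411 RPKM at P7. P7 lay above P0 in both chambers, on 2 to 44 reads a library. The highest entry of Slc38a1 moved the other way, with 0.0958 and 0.175 RPKM in RV P7 against 0.448 to 0.667 in RV P0, and 0.108 to 0.155 RPKM in LV P7 against 0.474 to 0.566 in LV P0. The genes were named here after their values were seen.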
